A study of Mus musculus with 22 samples.

Results

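The genes described here are 10 transcription factors of the ETS family measured in sorted mouse retinal microglia: Ets1, Ets2, Fli1, Elf1, Elf2, Elf4, Elk3, Etv5, Etv6 and Gabpa. They were taken from the deposited table by symbol, 10 of 28984 genes, and all 10 passed the filter on low values that left 12868 genes for testing. Ets1 was chosen by its low normalised counts in the knockout libraries at postnatal day 31 (P31), so its P31 difference, its differences between ages and its change of difference between ages are a description and carry no test. Of its contrasts, the one at postnatal day 17 (P17) is tested. The other 9 were taken as relatives of Ets1, and the question was whether they differed as Ets1 did. The rule set no threshold on any value.

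The series title places the work in retinal angiomatous proliferation in mice without Vldlr, the gene of the very low density lipoprotein receptor. Library titles gave the age and a genotype, either vldlrKO or control. There were 7 control and 5 knockout (KO) libraries at P17, and 5 of each at P31. All 4 groups came from cells sorted as CD45low, CD11b+, Ly6C-, Ly6G- and Tom+. The labels do not explain Tom, name no strain or further allele, and do not say whether libraries came from different animals. The p-values below therefore speak only of the variation among these libraries, which may be technical.

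ETS proteins share a DNA-binding domain that recognises sites around the core GGAA, and many of them can bind the same sites. Ets1 is the founding member of the family and is best known from lymphocytes and endothelial cells. Ets2 is its closest relative. In macrophages and microglia the best known ETS factor is PU.1, the product of Spi1, which the member list leaves out.

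Total recovered reads were 25.5 to 32.3 M in the controls and 23.9 to 33.7 M in the KO group at P17, and 30.8 to 54.0 M and 29.0 to 39.6 M at P31. Values are normalised counts, meaning reads divided by the authors' factor for each library. Vldlr itself had 53.6 to 786 normalised counts in the P17 controls and 0 to 16.8 in the P17 KO libraries. At P31 the ranges were 0 to 802 in controls, with a median of 0, and 0 to 55.2 in KO libraries, so Vldlr does not check the P31 labels. All 13 microglia markers examined were detected in all 22 libraries, and the lowest value of P2ry12, a purinergic receptor typical of microglia, was 111324. P17 KO library 1 stood apart. Its 13 microglia markers summed to 622869, while the lowest sum in any other library was 2029889. It was the lowest of all 22 libraries for 7 of the 10 ETS genes. P17 differences of the 10 genes are therefore given with and without it.

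Ets1 (ENSMUSG00000032035, mm10 chr9:32636221-32757820, plus strand) had at least 4073 normalised counts in every control library and was near absent in most P31 KO libraries. The 5 P31 controls had 6087, 4073, 5704, 5297 and 8884 normalised counts. The 5 P31 KO libraries had 262, 23.5, 12.7, 20.8 and 29.9. All KO libraries lay below all controls, and KO library 1 lay well above the other 4. The KO mean, 69.8 ± 108 (SD, n = 5), was 86.0-fold below the control mean of 6009 ± 1776 (SD, n = 5). The fitted log2 fold change was -6.92. Without P31 KO library 1 it was -7.55.

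The P31 KO values of Ets1 rest on 15 to 242 reads per library, against 6386 to 9376 reads in the controls. Reads from Y-linked genes were found in P31 controls 1 and 5, where they summed to 7414 and 4052 normalised counts, and reached at most 0.903 in the other P31 libraries. The Ets1 difference was -6.70 without these 2 controls. At P17 all 7 controls held Y-linked reads, from 2189 to 6030 normalised counts. P17 KO libraries 1 and 4 held 795 and 1822, with Ets1 at 348 and 1535, and P17 KO libraries 2, 3 and 5 held 0, with Ets1 at 3077, 1255 and 4400. Their part in the P17 difference was not tested.

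At P17 Ets1 was also lower in KO libraries, by less and with a wide spread. The 7 controls ranged from 4978 to 8180 normalised counts with a median of 5920. The 5 KO libraries had 348, 3077, 1255, 1535 and 4400, so the highest KO library lay below the lowest control. The means were 6416 ± 1161 (SD, n = 7) and 2123 ± 1608 (SD, n = 5), a 3.02-fold lower mean in KO libraries. The log2 fold change was -2.01 ± 0.53 (SE), with a 95% interval from -3.10 to -0.93. It did not pass the limma test over all genes (adjusted p = 0.0559). An exact two-sided permutation test of this single difference gave p = 0.00253, the smallest value that the 792 arrangements of the libraries allow. In the authors' deposited table the P17 log2 fold change was -1.60, with an adjusted p of 0.138.

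P17 KO library 1 took part in the size of this difference. Without it the log2 fold change was -1.48, the limma adjusted p was 0.147, and the exact two-sided permutation p was 0.00606, again the smallest possible over 330 arrangements. The call changed with the method. With scaling by trimmed means (TMM) in limma the difference was -1.81 with an adjusted p of 0.0431, which passes. Over 34 alternative settings it passed in 7, with adjusted p from 0.00207 to 0.22, and the log2 fold change stayed below 0 in all of them.

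**Figure D1:**
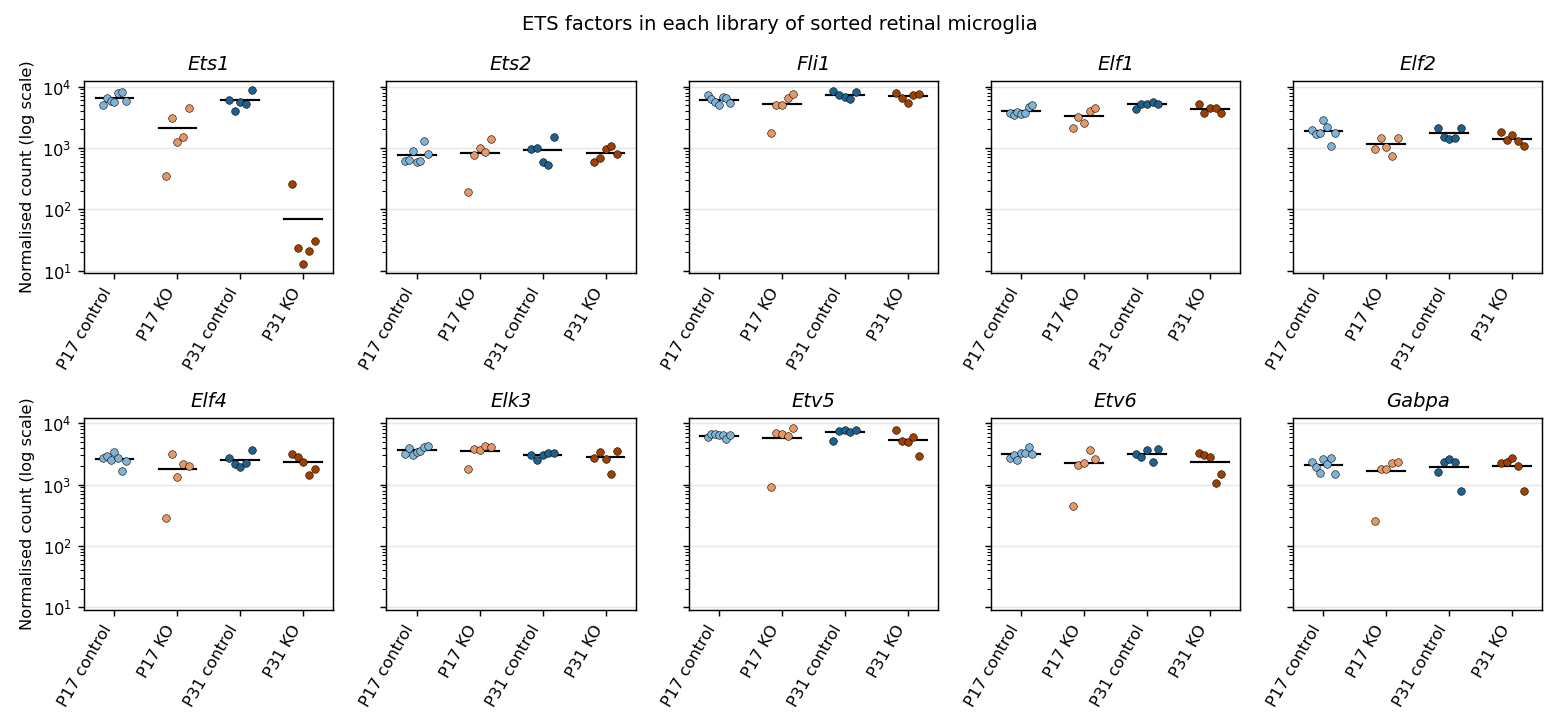
Normalised count (log scale) of the 10 ETS factors in each of the 22 libraries, by group. Points are libraries and horizontal lines are group means. Ets1 drops to between 12.7 and 262 in P31 KO libraries, while the other 9 genes overlap between KO and control at both ages, and P17 KO library 1 is the low point of its group for 9 of the 10 genes.

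Age differences of Ets1 are a description as well. In controls Ets1 averaged 6416 at P17 and 6009 at P31, and the fitted log2 difference was -0.12. In KO libraries it averaged 2123 at P17 and 69.8 at P31, with a log2 difference of -5.03. The KO difference was thus 4.91 lower on the log2 scale at P31 than at P17 (fitted value -4.91).

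None of the other 9 factors passed the limma test in KO against control at P31. An unadjusted p was under 0.05 for 0 of them, beside 13.6% of all genes. edgeR and DESeq2 also called 0. Over all genes tested, 2.88% were called in that contrast, so a count of 0 among 9 genes is near the background. The 9 log2 fold changes ran from -0.53 to 0.07, with a median of -0.19 beside a median of -0.05 over all genes. The lowest bound of any of their 95% intervals was -1.37, for Etv6. KO and control libraries overlapped for all 9, and 2.53% of all tested genes were lower in KO without overlap. The lowest adjusted p among the 9 was 0.613.

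**Figure D2:**
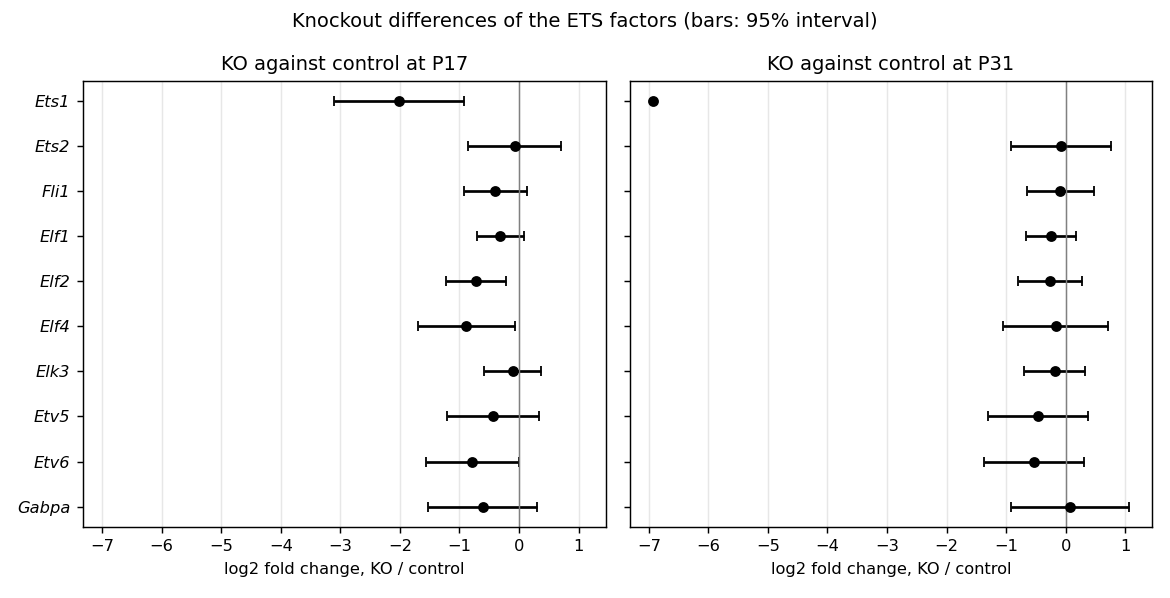
Fitted log2 fold change of KO over control for the 10 ETS factors at P17 (left) and P31 (right), with 95% intervals from limma (none for Ets1 at P31, which is a description). At P31 Ets1 is at -6.92 and the other 9 lie between -0.53 and 0.07, each with an interval that includes 0.

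Ets2, the closest relative of Ets1 and like it a target of ERK phosphorylation, was the member with the lowest level per length in both control groups. Its P31 controls had 943, 996, 584, 533 and 1529 normalised counts and its P31 KO libraries 588, 690, 970, 1081 and 808. The groups covered much of the same range. Its fitted log2 difference was -0.08 at P31 (95% interval -0.92 to 0.77) and -0.07 at P17 (-0.85 to 0.71). At P17 its sign turned in 9 of 34 alternative settings, and it was 0.39 without P17 KO library 1.

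Fli1 (mm10 chr9:32422204-32542861, minus strand), a factor of blood and vessel development in the same subfamily as Erg, lies 93.4 kb from Ets1. The P31 controls had 8342, 7232, 6656, 6316 and 8206 normalised counts of Fli1, and the P31 KO libraries had 7779, 6404, 5477, 7337 and 7689. Each P31 KO library thus held at least 5477 counts of Fli1 while Ets1 was at 262 or below. The log2 fold change of Fli1 was -0.09 at P31 (95% interval -0.66 to 0.48) and -0.39 at P17 (-0.92 to 0.13), or -0.04 without P17 KO library 1.

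The ratio of Ets1 to Fli1 within a library does not depend on how the library was scaled. It was added after the values had been seen and is a description. It ran from 0.687 to 1.25 in P17 controls and from 0.563 to 1.08 in P31 controls. In P17 KO libraries it ran from 0.20 to 0.620, and in P31 KO libraries from 0.00232 to 0.0337. P17 KO library 1 had the lowest P17 ratio, 0.20, with P17 KO libraries 3 and 4 close to it at 0.254 and 0.238. Ets1 was also taken against each of the 9 other members in turn. KO and control ranges of the ratio were apart for 7 of 9 members at P17, all but Elf2 and Elf4, and for 9 of 9 at P31. The P31 count follows from the low values by which Ets1 was chosen. All 9 ratios share Ets1, so they are not separate results.

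**Figure D3:**
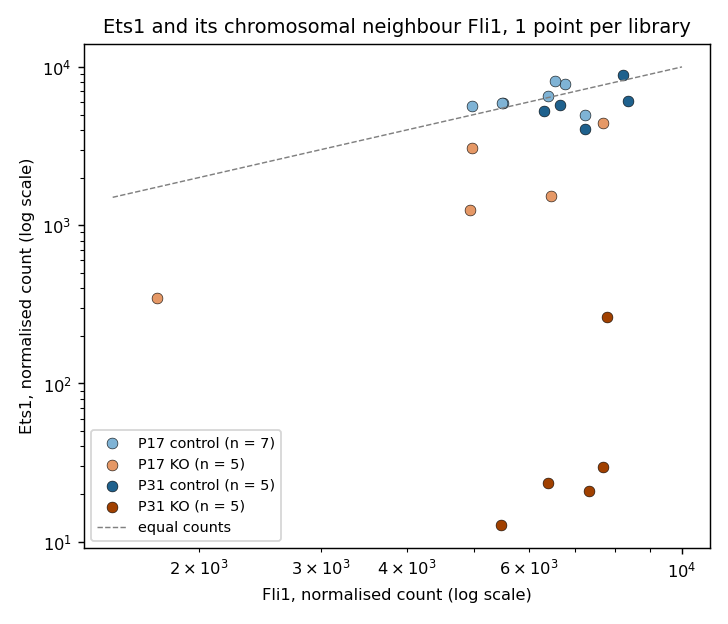
Ets1 against Fli1, both as normalised counts on log scales, with 1 point per library and a dashed line at equal counts. Controls of both ages lie near the line, P17 KO libraries lie below it at ratios of 0.20 to 0.620, and P31 KO libraries lie far below it with Fli1 between 5477 and 7779.

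Elf1, Elf2 and Elf4 form a subfamily, in which Elf4 is known for its part in lymphocyte quiescence and interferon responses. Elf1 had 4323, 5199, 5120, 5640 and 5279 normalised counts in P31 controls and 5260, 3766, 4454, 4416 and 3690 in P31 KO libraries. KO libraries 2 and 5 lay below all controls and the other 3 within their range. The fitted difference was -0.25 (95% interval -0.67 to 0.17), and at P17 it was -0.31, or -0.17 without P17 KO library 1. Elf4 had a log2 fold change of -0.17 at P31 (-1.04 to 0.71) and of -0.89 at P17 (-1.70 to -0.07, limma adjusted p = 0.308). In P17 KO library 1 Elf4 was at 289, against 1313 to 3152 in the other 4, and without that library its P17 difference was -0.33.

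Elf2 was the member besides Ets1 with the smallest p at P17. Its 7 P17 controls ranged from 1082 to 2834 normalised counts with a median of 1742, and the P17 KO libraries had 977, 1475, 1042, 725 and 1467. 3 KO libraries lay below every control and the other 2 within the controls' range. The log2 fold change was -0.72 ± 0.24 (SE), with a limma adjusted p of 0.175. It was -0.68 without P17 KO library 1, and it passed in 0 of 34 alternative settings. The authors' deposited table gives -0.73 with an adjusted p of 0.0490. Of all genes given an adjusted p there at P17, 2.8% were under 0.05. At P31 the log2 fold change of Elf2 was -0.27 (95% interval -0.81 to 0.27).

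Elk3 belongs to the ternary complex factors, which bind DNA together with SRF. Its P31 controls had 2986, 2501, 3071, 3331 and 3323 normalised counts and its P31 KO libraries 2763, 3436, 2660, 1500 and 3518. KO library 4 was the low value. Its fitted difference was -0.19 at P31 (95% interval -0.70 to 0.33) and -0.11 at P17 (-0.58 to 0.37), where the sign turned in 6 of 34 alternative settings and the value was 0.12 without P17 KO library 1.

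Etv5, of the PEA3 subfamily with Etv1 and Etv4, was the second most abundant member per length in all 4 groups. It had 5233, 7429, 7873, 7124 and 7836 normalised counts in P31 controls. The P31 KO libraries had 7786, 5065, 4985, 5997 and 2916. 3 KO libraries were below all controls and KO library 1 was among the highest. On the log2 scale the difference was -0.46 (95% interval -1.30 to 0.38). At P17 it was -0.43 (-1.21 to 0.34), and its sign turned in 2 of 34 alternative settings, being 0.15 without P17 KO library 1.

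Etv6, a transcriptional repressor needed for blood stem cells, had the lowest fitted value of the 9 at P31, -0.53 (95% interval -1.37 to 0.30). Its P31 controls had 3181, 2804, 3644, 2323 and 3810 normalised counts. The P31 KO libraries had 3238, 3036, 2820, 1073 and 1500, so 3 matched the controls and 2 were lower. At P17 it was -0.78 (-1.56 to -0.01, limma adjusted p = 0.337). Without P17 KO library 1, where Etv6 was at 442 against 2065 to 3682 in the other 4, it was -0.28.

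Gabpa is the DNA-binding subunit of GABP, a regulator of nuclear genes for mitochondrial proteins. It had 1614, 2296, 2591, 2330 and 791 normalised counts in P31 controls and 2237, 2322, 2735, 2050 and 784 in P31 KO libraries. Library 5 was the low value in both groups. Gabpa differed by a log2 value of 0.07 at P31 (95% interval -0.91 to 1.06) and of -0.61 at P17 (-1.52 to 0.30). Without P17 KO library 1, which had 259 against 1773 to 2356 in the other 4, the P17 value was -0.02.

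At P17, 0 of the 9 other factors passed limma, against 1.52% of all genes. An unadjusted p was under 0.05 for 3 (Elf2, Elf4 and Etv6), beside 14.7% of all genes. None of the 9 had groups without overlap, against 1.33% of all genes that were lower in KO without overlap. All 9 log2 fold changes were below 0, with a median of -0.43, but the median over all genes was -0.30. With TMM scaling 7 of 9 were below 0, with a median of -0.22 and an all-gene median of -0.11. Without P17 KO library 1, 6 of 9 were below 0, with a median of -0.04 and an all-gene median of -0.03.

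Between ages, 0 of the 9 passed limma in controls, where 1.46% of all genes did, and 0 in KO libraries, where 0.886% did. In KO libraries 2 had an unadjusted p under 0.05 (Fli1 0.57 and Elf1 0.43 on the log2 scale), beside 14.6% of all genes. In controls 0 did, beside 14.0% of all genes. The difference between the KO effects at P31 and P17 was called for 0 of the 9, with 0.0466% of all genes called. Its values ran from -0.08 for Elk3 to 0.72 for Elf4, with 0 at an unadjusted p under 0.05, beside 7.98% of all genes. In none of the 5 contrasts did any of the alternative settings, edgeR and DESeq2 among them, call any of the 9. The lowest adjusted p over those settings was 0.073, for Elf1 with age in controls.

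Per kilobase of exon, Fli1 and Etv5 were the most abundant of the 10 in every group. In P31 controls Fli1 averaged 2109 ± 260 normalised counts per kb (SD, n = 5) and Etv5 1730 ± 265, with overlapping library ranges. They were followed by Elf1 at 759 ± 71.8, Ets1 at 709 ± 210, Elk3 at 669 ± 74.5, Etv6 at 527 ± 102, Elf4 at 417 ± 114, Gabpa at 338 ± 128, Elf2 at 180 ± 39.0 and Ets2 at 159 ± 69.2. In this order the library ranges of neighbours overlapped everywhere except between Etv5 and Elf1. Ets1 ranked 4 in both control groups, 8 in P17 KO libraries and 10 in P31 KO libraries, where its range was apart from that of Ets2.

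Summed over the 10 genes per kb, Ets1 made up 10.6% ± 1.52 (SD, n = 7) in P17 controls, 4.02% ± 2.01 (n = 5) in P17 KO, 9.23% ± 1.96 (n = 5) in P31 controls and 0.122% ± 0.17 (n = 5) in P31 KO libraries. The other 9 together summed to 6887 ± 447 normalised counts per kb in P31 controls and 5960 ± 787 in P31 KO libraries, and their ranges overlapped. These sums were added after the values had been seen and are a description. In bulk libraries fewer cells that express a gene and less RNA of it per cell cannot be told apart.

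Spi1, which encodes PU.1, was more abundant per length than any of the 10. It averaged 11631 ± 1943 normalised counts (SD, n = 7) in P17 controls and 15426 ± 1711 (n = 5) in P17 KO libraries, which did not overlap. Its log2 fold change at P17 was 0.42 and did not pass (limma adjusted p = 0.276). At P31 it was -0.10 (95% interval -0.48 to 0.29). Spi1 was thus on the opposite side of 0 from Ets1 at P17, and P17 KO library 1, low for most ETS genes, had the highest Spi1 value of its group, 18321.

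Of the 17 further ETS genes listed, 14 were in the table and 7 passed the filter (Spi1, Etv1, Etv3, Etv4, Elk1, Elk4 and Erf). None of the 7 passed limma at either age, beside 1.52% of all genes at P17 and 2.88% at P31. At each age 2 had an unadjusted p under 0.05, as did 14.7% of all genes at P17 and 13.6% at P31. The 7 include Etv4, whose test is not read for the reason given below, so these counts are a description. Etv1, a relative of Etv5, had 710, 1093, 978, 672 and 1349 normalised counts in P31 controls and 690, 460, 402, 447 and 270 in P31 KO libraries. Only KO library 1 reached into the control range. The log2 fold change was -1.08 (limma adjusted p = 0.0878), and the authors' deposited table gives -1.08 with an adjusted p of 0.0149.

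Etv4, the remaining PEA3 gene, was at 0 in all 5 P31 controls and had 41.2, 32.9, 0, 66.0 and 260 normalised counts in P31 KO libraries. It reached at most 29.6 in P17 controls and 141 in P17 KO libraries, so it passed the filter on low values through KO libraries alone, and its test is not read here. Etv3 was at -0.49, Elk4 at -0.91, Elk1 at 0.55 and Erf at 0.09 on the log2 scale at P31. Erg, the relative of Fli1 typical of endothelial cells, had at most 6 reads in any library.

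The genes that lie next to Ets1 on chromosome 9 were examined as well. The 5 nearest tested genes on each side were Arhgap32, Gm27201, Gm37474, Gm37082 and Fli1 before it, and Gm10698, St3gal4, Dcps, Tirap and Srpr after it. None passed limma at P17 or P31, where 1.52% and 2.88% of all genes did, so a count of 0 among 10 genes is near the background. The P31 log2 fold changes ran from -0.82 for Tirap, an adaptor of Toll-like receptors, to 1.85 for Arhgap32 (limma adjusted p = 0.383 and 0.503). The nearest tested gene after Ets1 was 970 kb away. Before it, Gm27201, Gm37474 and Gm37082 lie within the span of Fli1, so the 10 neighbours are not 10 separate places. The sources used here do not give the strand setting of the counting, so reads of Ets1 and of a transcript on its opposite strand cannot be told apart.

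**Figure D4:**
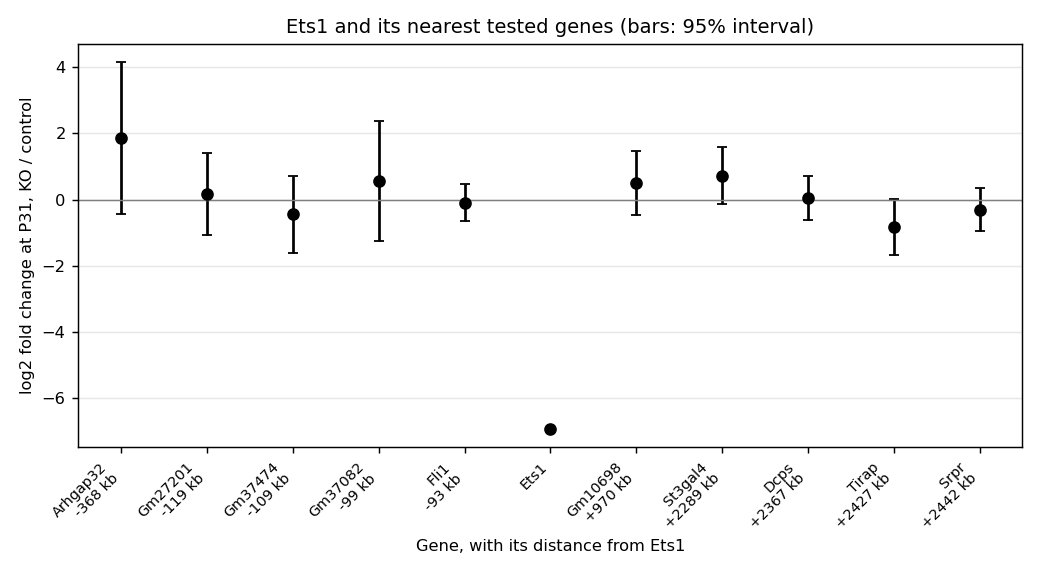
Fitted log2 fold change of KO over control at P31 for Ets1 and the 5 nearest tested genes on each side, with 95% intervals for the neighbours, in chromosomal order and labelled with the distance from Ets1 (axis not to scale). Ets1 is at -6.92 and its neighbours are between -0.82 and 1.85.

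Genes whose values followed Ets1 most closely were found by Pearson correlation of log2 values over the 22 libraries, among 10193 genes. They are a description, since these libraries chose them and share depth and scaling. Pear1, a receptor known from platelets, had r = 0.91, Syngr2 0.90, Foxn3, a forkhead factor, 0.90, Lpxn, a focal adhesion protein of blood cells, 0.88 and H2aw, a histone, 0.86. Over the 17 libraries without P31 KO, r was 0.87 for Pear1 and 0.89 for Lpxn. It was lower for Syngr2 (0.64), Foxn3 (0.60) and H2aw (0.58). P17 KO library 1 was kept in both sets of libraries. Lpxn averaged 6824, 3591, 6926 and 2310 normalised counts in the P17 controls, the P17 KO libraries, the P31 controls and the P31 KO libraries, in that order. Pear1 averaged 1621, 401, 1390 and 69.8, and it had no reads in 3 of the 5 P31 KO libraries.

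The other ETS factors followed Ets1 less closely over the 22 libraries, from r = 0.09 for Ets2 to 0.49 for Elk3. Over the 17 libraries without P31 KO, r ran from 0.50 for Elk3 to 0.83 for Elf4. These 17 still hold P17 KO library 1, the lowest of its group for 9 of the 10 genes. The r with Ets1 was not computed without that library. Among the 9 themselves, the median r over 36 pairs was 0.55 with all 22 libraries. It was 0.05 without P17 KO library 1, so the height of the median rested on that library. Single pairs then still ran from -0.32 to 0.70, the highest being Elf2 with Elf4. These values were added after the data had been seen.

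Partners and regulators of ETS proteins were examined as a list of 18 genes, all tested. At P31, 1 was called lower and 17 were not called, beside 2.88% of all genes, and the list median was -0.29 on the log2 scale beside -0.05 over all genes. At P17, 0 of 18 were called in limma, beside 1.52% of all genes. An unadjusted p was under 0.05 for 2 (Ep300 and Sp100), beside 14.7% of all genes. The called gene was Sp100, a nuclear body protein that binds ETS1. Sp100 fell from 2267 ± 552 normalised counts (SD, n = 5) in P31 controls to 719 ± 322 (n = 5) in KO libraries, a log2 fold change of -1.75 (limma adjusted p = 0.00431). Runx1, a DNA-binding partner of Ets1, was at -0.26, and Irf8, a partner of PU.1, at -0.48.

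Genes known as targets of ETS1 in other cells were listed without regard to direction. Of 24, 22 were in the table and 14 were tested. 0 were called at P17 and 0 at P31 in limma, beside 1.52% and 2.88% of all genes. An unadjusted p was under 0.05 for 4 and 3, beside 14.7% and 13.6% of all genes. The median log2 fold change was -0.47 at P17 and 0.06 at P31, beside -0.30 and -0.05 over all genes. At P31 the smallest p-values belonged to Il7r, the interleukin 7 receptor, at 1.52 (adjusted p = 0.0689), Ccl2, a monocyte chemokine, at 1.76 (0.108) and Plau, urokinase, at 2.38 (0.213). At P17 the 14 ran from -1.53 to 1.30, with 9 below 0. Among them Tgfbr2, the type II receptor of TGF-beta, was at -0.94 (0.198) without overlap of the groups. Of all tested genes, 1.33% were lower in KO without overlap at P17.

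ERK signalling phosphorylates several ETS factors, and a list of its output genes had 15 members, of which 10 were tested. In KO against control 0 were called at either age in limma, beside 1.52% of all genes at P17 and 2.88% at P31. An unadjusted p was under 0.05 for 3 at P17 (Dusp5, Spred1 and Ier3) and 2 at P31, beside 14.7% and 13.6% of all genes. Etv4 was among the 10 tested, and its test is not read here. The list median was -0.41 at P17 and -0.43 at P31 on the log2 scale, beside -0.30 and -0.05 over all genes. At each age 7 of the 10 were below 0. Egr1, an immediate early gene, was on the other side, at 0.16 at P17 and 2.35 at P31 (limma adjusted p = 0.152).

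Ets1 and Fli1 are also expressed in endothelial cells and lymphocytes, and those markers were read in the same libraries. The 12 endothelial markers were all in the table and 4 were tested. They summed to 298 to 1471 normalised counts in P31 controls and to 56.9 to 1964 in P31 KO libraries, so the ranges overlapped, and in P17 libraries to 1031 to 2821 in controls and 203 to 1491 in KO libraries. Pecam1 reached 1325 normalised counts and Kdr 255 in P31 controls, against 822 and 817 in P31 KO libraries. Cldn5, an endothelial junction protein, was at 0 in all P31 controls, as were Tek, Vwf, Emcn and Esam. In P31 KO libraries Cldn5 reached 45.2. The 4 tested markers differed in direction at P31, from -2.46 for Pecam1 (limma adjusted p = 0.12) to 2.18 on the log2 scale. Their median was -0.58, with 3 below 0. Of 15 lymphocyte markers 8 were in the table, and Cd79b, at 1235 to 4804, was the one tested. At P31 their sums were 1554 to 3272 in controls and 1235 to 1785 in KO libraries. Cd79b alone reached 3272 in P31 controls and 1775 in P31 KO libraries. Lck, the next highest, reached at most 54.8 in any library, so these sums are mostly Cd79b. Trac and Nkg7 reached at most 7.67 and 1.08 normalised counts in any library.

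Markers of other retinal cells were read in the same libraries. Over the 15 rod photoreceptor markers the median KO difference was -2.10 on the log2 scale at P17 and 1.82 at P31. Limma called 0 at either age, beside 1.52% and 2.88% of all genes. An unadjusted p was under 0.05 for 6 and 7, beside 14.7% and 13.6% of all genes. With the mean log2 value of those markers as a covariate, the Ets1 difference was -2.25 at P17 and -6.70 at P31. Of 10 Mueller glia and astrocyte markers 9 were tested and 2 were called higher in KO libraries at both ages. Over all genes 1.52% were called in either direction at P17 and 2.88% at P31. The list median was -0.66 at P17 and -0.53 at P31, with 6 and 5 of the 9 below 0. Slc1a3, a glutamate transporter, rose by 4.57 at P17 and 4.68 at P31 on the log2 scale (limma adjusted p = 4.96e-09 and 2.02e-08). Apoe, a lipid carrier also made by activated microglia, rose by 1.38 and 1.62 (0.0239 and 0.00748). The 10 markers summed to 206041 to 577726 normalised counts in controls and 692372 to 1391730 in KO libraries at P17. At P31 the sums were 25373 to 88013 and 135558 to 222645, without overlap at either age. Apoe reached the highest value of the 10, 1348802, then Slc1a3 at 97037 and Glul at 28076. The sums therefore need not reflect the other markers. In the monocyte, neutrophil and border macrophage list, 1 of 4 tested genes was called at P17, beside 1.52% of all genes. S100a9, a neutrophil protein, had 14.2 to 99.1 normalised counts in P17 controls and at most 2.51 in P17 KO libraries. It passed the filter through controls alone, so neither its test nor the count of 1 is read here. Of the pericyte and fibroblast markers 1 was tested, Col1a1. It was at 0 in 7 libraries and reached at most 154 normalised counts in P31 controls and 34.7 in P31 KO libraries. Its fall at P31 by 2.74 on the log2 scale (limma adjusted p = 0.0150) rests on low values and is given as a description. The part of these cells in the ETS values was otherwise not tested.

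The promoter windows of the members were searched for CCGGAAGT, a high-affinity form of the ETS site, on both strands. RefSeq windows on GRCm38.p6, from 250 bases before to 50 after each start, were matched for 8 of the 10 members, with 12 windows. The motif was in 0 of the 12, and in 3.89% of 32851 windows of all genes. Ets1 and Fli1 had no matched window. One motif was searched, and the count says only that these letters are not in these windows.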

How the data were processed

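Retinal microglia RNA was measured in 22 libraries. Per the submitters' processing notes, the build was mm10 and the tools included DESeq2 1.22.2 in R 3.5.3, featureCounts, STAR 2.7.5b and FastQC 0.72, with no role given. The deposited table holds a normalised signal, gene counts the authors divided by a factor per library, as the values show: divided by the value of 1 read, 100% of 349420 values above 0 were whole numbers (relative tolerance 1e-06). It also holds the authors' deposited log2 fold changes and adjusted p-values.

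The test was limma 3.58.1 (R 4.3.3; trend, robust) on log2(normalised count + 10), with 4 group means over 22 libraries and genes at 30 or more in at least 5 libraries. P-values were adjusted by Benjamini-Hochberg over 12868 genes and called under 0.05. The log2 scale understates changes of low genes. Alternatives on recovered reads used edgeR 4.0.16 and DESeq2 1.42.0. The code was tested on simulated data. No replicate pair within a group agreed within sampling noise, the lowest chi-square per gene being 55.5, so each library counted once.

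Positions and exon lengths are from GENCODE vM21 (mm10), matched for 99.8% of genes. Named genes were the 10 members, every tested gene of the rest of the family, called genes of the lists in KO against control and otherwise up to 3 members with the smallest p. Further list members named for their role, such as Runx1 and Irf8, were chosen after values were seen. The members and lists were chosen with earlier results of these data known.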

Additional observations from a re-analysis of the deposited data

Results flagged for a closer look

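Of 40 sets of values (10 genes in 4 groups), 6 had a lowest or highest library set apart from the rest by Dixon's criterion at 95%; chance gives about 2. Ets1 was 262 normalised counts in P31 KO library 1, above the other 4 at 12.7 to 29.9. In P17 KO library 1, the library with the low microglia marker sum, Elk3 was 1783, Etv5 914 and Gabpa 259, each the lowest of its group. Ets2 was 1310 in P17 control library 6, the highest of that group. Etv5 was 5233 in P31 control library 1, the lowest of that group. P31 control library 1 also held Y-linked reads, and its rod marker score of 11.6 was the highest of the P31 controls. The part of these in the values was not tested.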

How the results depend on the processing

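Each result was recomputed under 34 alternatives (33 for the difference between KO effects, where a fit of only the groups compared has no separate form), of which 22 left out 1 library and 1 (TMM with P17 KO library 1 left out) was chosen after seeing the data. Ets1 at P17 did not pass as reported (-2.01) and passed with TMM scaling in limma (-1.81), a pseudocount of 64 (-1.96), DESeq2 (-1.54) and limma voom (-1.65); the cause was not tested. With 1 library left out it ran from -2.39 to -1.48, and it passed in 3 of 22, without P17 KO library 2 or 5 or without P31 KO library 1, where the adjusted p was 0.0372, 0.0189 and 0.00833. With edgeR it was -1.53 (adjusted p = 0.111). The count of the 9 other factors called was 0 in every contrast and alternative. For so few genes this is near the share called over all genes. An uncalled value that changed sign was counted as unchanged; the report gives those signs for Ets2, Elk3 and Etv5 at P17, and at P31 the sign turned in 3 alternatives for Ets2, 5 for Gabpa and 1 each for Fli1, Elf4 and Elk3. Same-numbered libraries correlated from -0.137 to 0.117 in their deviations, so the numbers were not taken to pair them. With a replicate block Ets1 at P17 was -1.96 (adjusted p = 0.22), and 120 genes were called at P17 against 195 without it. Counts over all genes moved more with other settings: at P17 DESeq2 called 575 and edgeR 349, of which 308 were higher, against 99 of 195 in limma. At P31 limma called 371, DESeq2 649, edgeR 217 and the fit with TMM without P17 KO library 1 878. For age in controls 188 became 1017 with only the groups compared and 3 with the rod score in the model. For age in KO 114 became 769 with DESeq2 and 8 with only the groups compared. For the difference between KO effects 6 became 183 with DESeq2 and 0 with the rod score. Ets1 in P31 KO rests on as few as 15 reads in a library.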
